A study of Mus musculus with 12 samples.

Results

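The respiratory chain genes described here are the gene rows of a mouse count table whose symbols begin with Ndufa, Ndufb, Ndufc, Ndufs or Ndufv and a number, are Sdha, Sdhb, Sdhc or Sdhd, begin with Uqcr, Cox4 to Cox8 or Atp5, or are the mitochondrial mt-Nd, mt-Co, mt-Cytb and mt-Atp genes. Of 114 rows that match, 104 had counts, among 27279 rows with counts in all. They comprised 82 nuclear subunit genes, all 13 protein-coding genes of the mitochondrial genome, and 9 pseudogenes or gene models. RNA was sequenced from regulatory T cells (Treg cells) in 3 groups. Tumor pTreg cells (peripherally induced, n = 3 libraries) and tumor tTreg cells (thymus-derived, n = 5) came from Hepa1-6 tumors, a mouse hepatoma line, in TCRbd-/- hosts, which lack T cells of their own. The hosts had received CD45.1 Foxp3YFP-cre tTreg cells, conventional Foxp3- CD4+ cells from CD45.2 Foxp3YFP-cre mice, and CD8+ T cells, mixed 1:10:8, were given the tumor cells 3 days later, and were killed on day 18 after inoculation. LN Treg cells (n = 4) were sorted from lymph nodes of mice without tumors, for which the labels give the same genotype field and no transfer or tumor. The tumor cells therefore differed from the LN cells in transfer, host, tissue and tumor together. The labels used here give neither the gate that separated pTreg from tTreg cells, nor the age of the mice, nor whether each library was a separate mouse, so p-values measure the spread between libraries, which may be technical.

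The respiratory chain passes electrons from NADH through complex I, and from succinate through complex II, to ubiquinone, complex III, cytochrome c and complex IV, where oxygen is reduced. Complexes I, III and IV pump protons, and complex V, the ATP synthase, uses the proton gradient to make ATP. Complex II is wholly nuclear-encoded, and the other complexes combine nuclear subunits with a few that the mitochondrial genome encodes. Treg cells are known to rely on oxidative metabolism more than effector T cells do, and mitochondria-rich cells such as hepatocytes carry abundant transcripts of the same genes.

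Each library held 17964262 to 18180959 counts in pTreg cells and 18107272 to 18510923 counts in tTreg cells, against 14573864 to 17323894 counts in LN Treg cells. The libraries did not match their label equally well. Foxp3, the transcription factor that defines Treg cells, stood at 20.3 ± 0.58 CPM (counts scaled to a common library total) in pTreg cells and 8.74 ± 0.48 CPM in tTreg cells, against 441 ± 11.1 CPM in LN Treg cells. A list of 18 pan-T cell genes summed to 1366 to 1397 CPM in pTreg cells and 133 to 139 CPM in tTreg cells, against 6349 to 6505 CPM in LN Treg cells, and all 18 passed the test in each comparison, higher in pTreg than tTreg cells and lower in either than in LN Treg cells. A list of 10 hepatocyte or hepatoma genes summed to 5386 to 5755 CPM in pTreg cells and 7956 to 8306 CPM in tTreg cells, against 7.44 to 9.53 CPM in LN Treg cells, where Apoa2 and Fgb were at 0 in every library, and 6 of its genes were called higher in each tumor group and 6 lower in pTreg than tTreg cells. A list of 12 macrophage genes summed to 6066 to 6109 CPM in pTreg cells and 6100 to 6457 CPM in tTreg cells, against 91.3 to 96.1 CPM in LN Treg cells. The part of these other cells in the results below was not tested, a level per T cell was not computed, and in bulk RNA fewer cells of a type and less RNA per cell cannot be told apart.

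In tumor pTreg and tumor tTreg cells most respiratory chain genes were higher than in LN Treg cells, and most of those that differed between the tumor groups were lower in pTreg cells. Nuclear subunit transcripts together took 0.645 ± 0.011% of all counts in pTreg cells and 0.733 ± 0.020% in tTreg cells, against 0.508 ± 0.017% in LN Treg cells (SD; n = 3, 5 and 4 libraries, as for every SD below). The mitochondrial-encoded transcripts took 4.33 ± 0.17% in pTreg cells and 5.01 ± 0.19% in tTreg cells, against 3.86 ± 0.071% in LN Treg cells. No library of one group overlapped another group in either share. The pan-T sum ran the other way between pTreg and tTreg cells. The hepatocyte sum, and the fibroblast sum given below, followed the same order as both shares. The macrophage sums of the tumor groups overlapped, and the pericyte sum given below was higher in pTreg than tTreg cells. The part of any of these cells was not tested.

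The tests covered 78 of the 82 nuclear subunit genes, all 13 mitochondrial genes and 4 of the 9 pseudogenes or gene models, with edgeR's quasi-likelihood test on all 15705 genes that passed the filter on low counts and Benjamini-Hochberg adjustment. Called genes are those with an adjusted p under 0.05. In pTreg over tTreg cells 2 nuclear subunit genes were higher and 49 lower, beside 26.8% of all tested genes higher and 25.3% lower (52.1% called). The median log2 fold change was -0.20 over the nuclear genes and -0.01 over all genes. In pTreg over LN Treg cells 56 were higher and 7 lower, beside 47.6% of all genes higher and 39.8% lower (87.5% called), with medians of 0.48 and 0.12. Scaled by library totals, the split in this comparison was 50 higher and 15 lower, and the median of all genes moved by -0.104. The nuclear median stood 0.36 above the median of all genes under either scaling. A change of scaling shifts every gene about alike, so this difference could hardly change and is no test of the scaling. In tTreg over LN Treg cells 58 were higher and 7 lower, beside 48.1% of all genes higher and 42.3% lower (90.3% called), with medians of 0.62 and 0.10. Changes of at least 1.5-fold were found in 0 nuclear genes higher and 1 lower between the tumor groups, where such changes were called in 9.75% of all genes higher and 3.55% lower. The count of 0 was the same with DESeq2 and with limma on log2(FPKM + 1). An unadjusted p could not change it, since the highest nuclear log2 fold change there was 0.26, below 1.5-fold. The gene that was lower was Cox7a1. Over LN Treg cells nuclear changes of at least 1.5-fold numbered 32 higher and 1 lower in pTreg cells (36.8% and 26.7% of all genes). In tTreg cells they numbered 42 higher and 1 lower (37.9% and 30.8%). The 2 comparisons with LN Treg cells share those 4 libraries, and the 3 comparisons share every group. These shares of all genes also stand beside the counts by complex and by genome below.

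**Figure D1:**
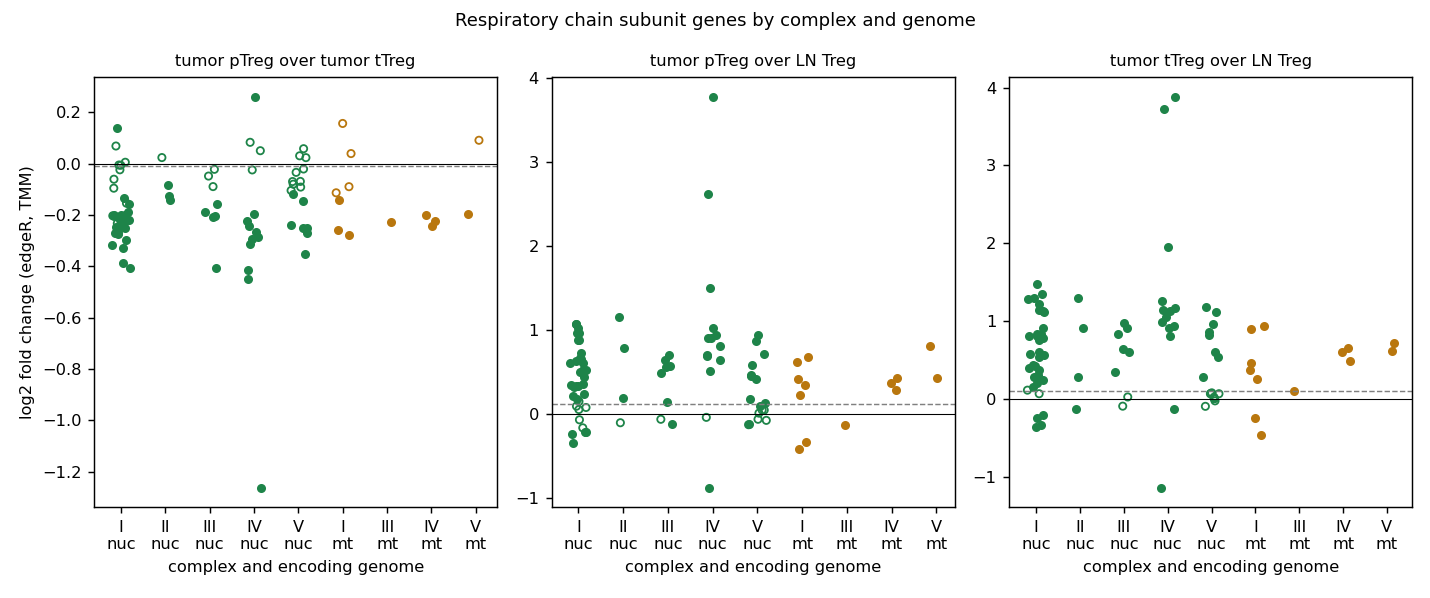
Log2 fold change (y) of each tested subunit gene, by complex and by encoding genome (nuc, nuclear; mt, mitochondrial; x), in the 3 comparisons; filled points passed the test, open points did not, and the dashed line is the median of all tested genes. Complex IV nuclear genes reach highest over LN Treg cells, and most filled points between the tumor groups lie between -0.1 and -0.45.

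Complex I, the NADH dehydrogenase, had 35 nuclear subunit genes, all tested. In pTreg over tTreg cells 24 were lower, 1 higher and 10 not called (median -0.21). In pTreg over LN Treg cells 25 were higher, 4 lower and 6 not called (median 0.36), and in tTreg over LN Treg cells 29 were higher, 4 lower and 2 not called (median 0.57). Of the 7 nuclear core subunits, which carry the flavin, the iron-sulfur clusters or the quinone site, 6 were lower in pTreg than tTreg cells, 5 were higher and 1 lower in pTreg over LN Treg cells, and 6 were higher and 1 lower in tTreg over LN Treg cells. Of the 28 accessory subunits 18 were lower and 1 higher between the tumor groups, 20 were higher and 3 lower in pTreg over LN Treg cells, and 23 were higher and 3 lower in tTreg over LN Treg cells.

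Ndufb9, an accessory subunit of the membrane arm (chr15:58933756-58939488, GRCm38), had 50.6, 53.0 and 55.5 CPM in pTreg cells and 70.7, 67.9, 70.4, 72.8 and 71.4 CPM in tTreg cells, against 27.1, 24.8, 29.8 and 26.4 CPM in LN Treg cells. The 3 groups stood apart, with tTreg cells highest and LN Treg cells lowest. Its log2 fold changes were -0.41, 1.07 and 1.48 in pTreg over tTreg, pTreg over LN Treg and tTreg over LN Treg cells (adjusted p 5.03e-09, 1.63e-17 and 1.22e-22). Ndufc1, a small accessory subunit, changed by 1.08 and 1.35 over LN Treg cells in pTreg and tTreg cells, and Ndufa12, an accessory subunit, fell by 0.39 on the log2 scale in pTreg against tTreg cells (adjusted p 4.83e-05). Ndufs1, the largest core subunit, which holds iron-sulfur clusters, was nearer to even, at -0.19 between the tumor groups, 0.35 in pTreg over LN Treg cells and 0.54 in tTreg over LN Treg cells. Ndufv1, the flavin-binding subunit, had -0.13, 0.44 and 0.57, all called. Ndufa7, the nuclear complex I gene with the highest mean FPKM (fragments scaled by transcript length and library size), had 233 FPKM in pTreg cells and 278 FPKM in tTreg cells, against 126 FPKM in LN Treg cells.

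The complex I genes did not all move together. Ndufb7, an accessory subunit of the membrane arm, had 28.7, 28.7 and 31.5 CPM in pTreg cells and 24.1, 26.5, 27.4, 28.8 and 28.1 CPM in tTreg cells, against 34.6, 38.3, 38.8 and 36.2 CPM in LN Treg cells. Both tumor groups were below every LN Treg library, and the tumor groups overlapped. Its log2 fold change was -0.21 in pTreg and -0.36 in tTreg cells over LN Treg cells (adjusted p 0.00164 and 4.47e-07). Between the tumor groups it was 0.14 (SE 0.059, adjusted p 0.045), a call kept in 11 of 22 alternatives, over which the adjusted p ran from 0.015 to 0.44. It was lost with RLE scaling, library totals, DESeq2 and the 3 limma fits on FPKM, and without pTreg replicate 1 or 3 or tTreg replicate 1, 2 or 3. Ndufa3, another accessory subunit, had 21.3, 20.7 and 19.0 CPM in pTreg cells and 21.1, 17.9, 20.2, 22.4 and 21.04 CPM in tTreg cells, against 25.7, 27.9, 30.4 and 26.8 CPM in LN Treg cells. The tumor groups overlapped fully and lay below LN Treg cells, by -0.34 in pTreg (adjusted p 5.99e-05) and -0.34 in tTreg cells (adjusted p 1.04e-05). Ndufa6 followed the same pattern at -0.23 and -0.24, and so did Ndufs7, the core subunit that holds the last iron-sulfur cluster before ubiquinone, at -0.22 and -0.21, where the tTreg and LN Treg libraries overlapped.

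**Figure D2:**
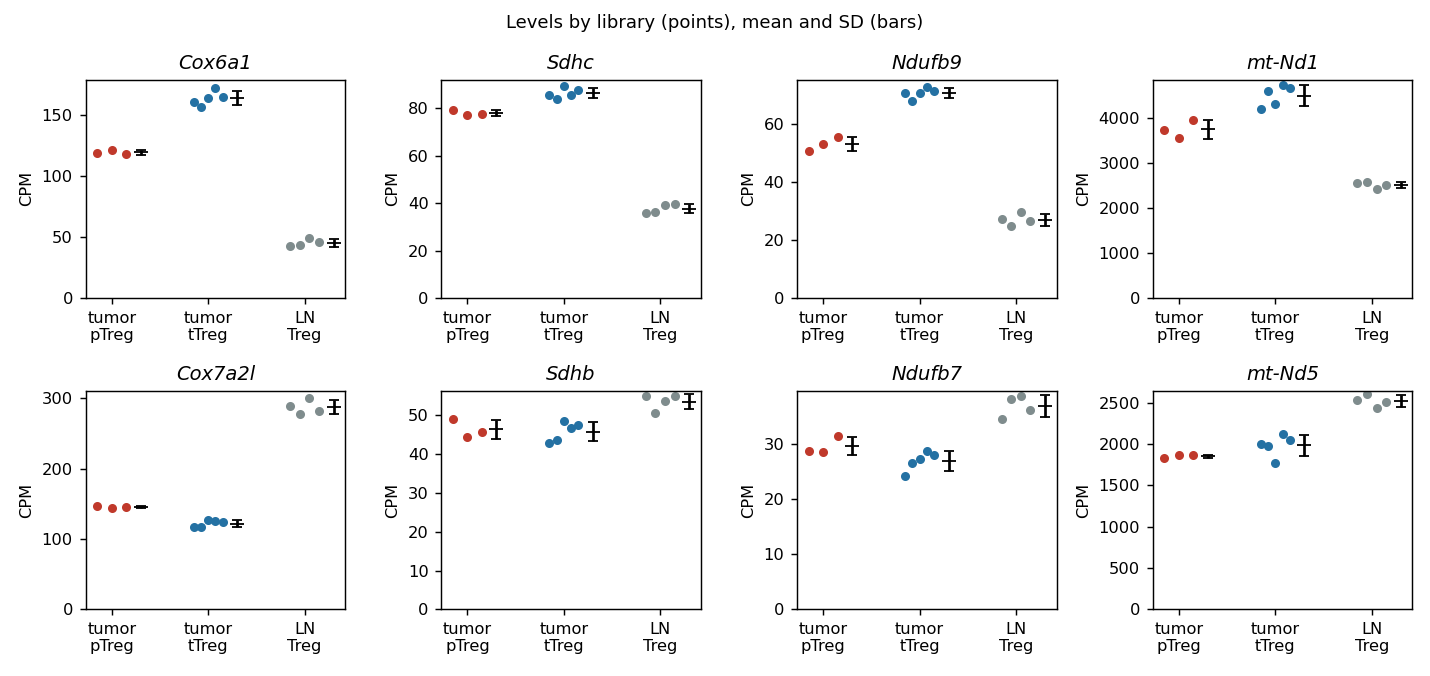
CPM (y) of 8 subunit genes in each library (points; bars, mean and SD) of tumor pTreg, tumor tTreg and LN Treg cells. Cox6a1, Sdhc, Ndufb9 and mt-Nd1 are lowest in LN Treg cells, whereas Cox7a2l, Sdhb, Ndufb7 and mt-Nd5 are highest there.

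Complex II, succinate dehydrogenase, oxidizes succinate in the tricarboxylic acid cycle and has 4 subunits, all tested. Sdhc and Sdhd, the 2 membrane anchors, were well above LN Treg cells in both tumor groups, whereas Sdhb, the iron-sulfur subunit, was not. Sdhc had 79.5, 77.0 and 77.6 CPM in pTreg cells and 85.8, 84.0, 89.4, 85.8 and 87.9 CPM in tTreg cells, against 35.8, 36.2, 39.1 and 39.5 CPM in LN Treg cells. The groups did not overlap. Its log2 fold change was 1.15 in pTreg and 1.296 in tTreg cells over LN Treg cells (adjusted p 1.57e-20 and 3.26e-23), and -0.14 in pTreg over tTreg cells (adjusted p 0.0014). Sdhb had 49.1, 44.4 and 45.6 CPM in pTreg cells and 42.8, 43.6, 48.6, 46.7 and 47.5 CPM in tTreg cells, against 55.0, 50.6, 53.6 and 55.0 CPM in LN Treg cells. All tumor libraries were below all LN Treg libraries, with a log2 fold change of -0.11 in pTreg cells that did not pass the test (adjusted p 0.052) and -0.13 in tTreg cells that did (adjusted p 0.00763). The log2 ratio of Sdhc to Sdhb counts, a pair chosen after its values were seen, was 0.75 ± 0.052 in pTreg cells and 0.92 ± 0.055 in tTreg cells, against -0.51 ± 0.075 in LN Treg cells. Sdhd changed by 0.78 and 0.91 over LN Treg cells in pTreg and tTreg cells. Sdha, the flavoprotein and the complex II gene with the highest mean FPKM, changed by 0.20 and 0.28 on counts, but on FPKM values its difference between pTreg and LN Treg cells was -0.043 and was not called. Sdhaf1, an assembly factor known to help insert iron-sulfur clusters into Sdhb, had 12.1 ± 1.35 CPM in pTreg cells and 9.79 ± 0.60 CPM in tTreg cells, against 42.1 ± 2.44 CPM in LN Treg cells (log2 fold change -1.69 and -2.01 over LN Treg cells, adjusted p 3.07e-19 and 1.42e-22).

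Complex III, which passes electrons from ubiquinol to cytochrome c, had 8 nuclear genes under the rule. In pTreg over tTreg cells 5 were lower and 3 not called, in pTreg over LN Treg cells 6 were higher and 1 lower, and in tTreg over LN Treg cells 6 were higher and 0 lower. At an unadjusted p below 0.05 edgeR also found 0 lower there, as did DESeq2 at an adjusted p, whereas limma on log2(FPKM + 1) called 2 lower. Uqcr11, a small accessory subunit, had 18.3, 16.03 and 17.4 CPM in pTreg cells and 24.3, 23.1, 20.2, 24.9 and 22.5 CPM in tTreg cells, against 12.1, 11.5, 13.9 and 12.5 CPM in LN Treg cells. The groups did not overlap, and its log2 fold change of -0.41 between the tumor groups was among the 5 lowest of the called members named by rule (adjusted p 1.84e-05). Uqcrfs1, the Rieske iron-sulfur protein, did not pass the test between the tumor groups at -0.05 and changed by 0.55 and 0.60 over LN Treg cells. Uqcrc1, a large core protein without a redox group, had 53.2, 50.7 and 53.4 CPM in pTreg cells and 58.5, 57.8, 53.5, 55.4 and 55.2 CPM in tTreg cells, against 59.7, 56.5, 59.8 and 59.6 CPM in LN Treg cells. It passed no test in the 3 comparisons, at -0.09, -0.06 and 0.02. Uqcrh, the hinge protein near the cytochrome c docking site and the nuclear complex III gene with the highest mean FPKM, had 419 FPKM in pTreg cells and 440 FPKM in tTreg cells, against 491 FPKM in LN Treg cells, and was called lower in pTreg over LN Treg cells (-0.11, adjusted p 0.0474) and was not called in tTreg over LN Treg cells (-0.09, adjusted p 0.0625).

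Complex IV, cytochrome c oxidase, had the largest medians of the 5 complexes over LN Treg cells, 0.86 in pTreg and 1.09 in tTreg cells over its 14 tested nuclear genes. Of these 12 were higher and 1 lower in pTreg over LN Treg cells, 12 were higher and 2 lower in tTreg over LN Treg cells, and 10 were lower and 1 higher in pTreg over tTreg cells. Cox6a1, the general form of a subunit thought to tune the enzyme's activity (chr5:115345642-115348981, GRCm38), had 119, 122 and 118 CPM in pTreg cells and 161, 157, 164, 173 and 165 CPM in tTreg cells, against 42.7, 43.2, 49.5 and 46.1 CPM in LN Treg cells. Among members with a mean of at least 5 CPM it differed most in all 3 comparisons, without overlap, at -0.45 (SE 0.037, adjusted p 2.97e-11), 1.499 (SE 0.044, adjusted p 8.40e-23) and 1.95 (SE 0.039, adjusted p 3.99e-27) in pTreg over tTreg, pTreg over LN Treg and tTreg over LN Treg cells. Cox4i1, the abundant form of the regulatory subunit IV and the nuclear complex IV gene with the highest mean FPKM, had 582 FPKM in pTreg cells and 690 FPKM in tTreg cells, against 389 FPKM in LN Treg cells. Cox8a and Cox6b1 changed by 1.02 and 0.70 in pTreg over LN Treg cells and by 1.26 and 0.99 in tTreg over LN Treg cells. Ndufa4, named for complex I but now known as a complex IV subunit, fell by 0.41 on the log2 scale in pTreg against tTreg cells (adjusted p 3.65e-09) and changed by 0.64 and 1.05 over LN Treg cells.

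Cox7a2l went the other way. It is a relative of subunit VIIa known in mice to help join complexes III and IV into supercomplexes (chr17:83501918-83517330, GRCm38). It had 147, 144 and 145 CPM in pTreg cells and 117, 116, 127, 126 and 124 CPM in tTreg cells, against 289.8, 278, 301 and 282 CPM in LN Treg cells. LN Treg cells were highest, pTreg cells next and tTreg cells lowest, with no overlap. Its log2 fold change was 0.26 in pTreg over tTreg cells (SE 0.036, adjusted p 4.41e-07), -0.88 in pTreg over LN Treg cells (SE 0.036, adjusted p 2.93e-19) and -1.14 in tTreg over LN Treg cells (SE 0.031, adjusted p 1.01e-23). Its paralog Cox7a2, the general form of subunit VIIa, differed little, at 0.08, -0.04 and -0.12, and passed only the test of tTreg over LN Treg cells (adjusted p 0.0251). Of the FPKM of Cox7a1, Cox7a2 and Cox7a2l together, Cox7a2l held 65.7 ± 1.23% in pTreg cells and 61.6 ± 0.94% in tTreg cells, against 78.0 ± 1.29% in LN Treg cells. The order of Cox7a2l matched the order of LN Treg, pTreg and tTreg cells in the pan-T sum, whose part in it was not tested.

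Tissue-restricted forms of complex IV subunits were near 0 in every group but not equally so. Cox4i2, an alternative form of subunit IV known to respond to oxygen, had 28, 41 and 30 counts in pTreg cells and 34, 37, 27, 37 and 27 counts in tTreg cells, against 1, 0, 5 and 3 counts in LN Treg cells. The tumor groups overlapped, and both lay above every LN Treg library. The log2 fold change was 3.78 in pTreg and 3.73 in tTreg cells over LN Treg cells (adjusted p 9.67e-10 and 2.35e-10), and 0.05 between the tumor groups (adjusted p 0.872). Cox7a1, the heart and skeletal muscle form of subunit VIIa, had 7, 5 and 4 counts in pTreg cells and 13, 15, 14, 15 and 9 counts in tTreg cells, against 0, 1, 1 and 1 counts in LN Treg cells. The groups did not overlap. Summed per group and divided by the group's total, it was 0.409 times as high in pTreg as in tTreg cells (95% exact interval 0.221 to 0.714). Against LN Treg cells with their 3 counts the ratio was 6.50 in pTreg cells (1.86 to 34.8) and 15.9 in tTreg cells (5.21 to 79.1), and intervals and floors here cover counting error only. Ndufa4l2, a relative of Ndufa4 known as a target of hypoxia-inducible factor, had 15, 3 and 9 counts in pTreg cells and 6, 4, 10, 5 and 5 counts in tTreg cells, against 0 in all 4 LN Treg libraries. With a floor of 3 counts over the LN Treg group it was at least 10.97-fold higher in pTreg cells and at least 7.23-fold higher in tTreg cells. It did not pass the filter and has no test.

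Cox6a2, the muscle form of subunit VIa, had 3 counts in all pTreg libraries and 12 in all tTreg libraries, against 14 in all LN Treg libraries. Cox6b2, the testis form of subunit VIb, had 22 and 15, against 28. Cox7b2 had 1 count in a single tTreg library, and Cox8b and Cox8c had none. The general forms Cox4i1, Cox6a1, Cox6b1, Cox7b, Cox8a and Ndufa4 each held over 98% of their family's FPKM in every library. Pericytes are known to express Cox4i2 and Ndufa4l2 in mice. Pericyte and smooth muscle genes summed to 41.3 to 53.1 CPM in pTreg cells and 26.0 to 33.5 CPM in tTreg cells, against 4.29 to 5.17 CPM in LN Treg cells, and 9 of that list's 11 genes were called higher in each tumor group, while Cspg4 and Abcc9 were at 0 in all LN Treg libraries. Fibroblast genes summed to 134 to 154 CPM in pTreg cells and 676 to 801 CPM in tTreg cells, against 2.18 to 4.597 CPM in LN Treg cells. Both this sum and the hepatocyte sum had the same order as Cox7a1. Skeletal muscle and brown fat genes summed to 0.935 to 1.28 CPM in pTreg cells and 0.607 to 1.46 CPM in tTreg cells, against 3.53 to 4.21 CPM in LN Treg cells. The part of such cells in these low counts was not tested.

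Complex V, the ATP synthase, had the smallest medians of nuclear genes among the 5 complexes over LN Treg cells. They were 0.13 in pTreg and 0.08 in tTreg cells, beside 0.12 and 0.10 over all genes. The medians of its 2 mitochondrial genes were 0.62 and 0.67. Its nuclear genes summed to 2862 CPM in pTreg cells and 3226 CPM in tTreg cells, against 2217 CPM in LN Treg cells. Of its 17 nuclear genes 7 were lower and 0 higher in pTreg over tTreg cells, beside 25.3% and 26.8% of all genes. In pTreg over LN Treg cells 10 were higher and 1 lower, beside 47.6% and 39.8%. In tTreg over LN Treg cells 8 were higher, 0 lower and 9 not called, beside 48.1% of all genes higher and 42.3% lower (90.3% called). The 8 of 17 higher are near the share of all genes. Beside these counts of 0, edgeR at an unadjusted p below 0.05 and DESeq2 also found 0, and limma on log2(FPKM + 1) called 0 higher in pTreg over tTreg cells and 1 lower in tTreg over LN Treg cells. Atp5b, the catalytic beta subunit of the F1 head and the complex V gene with the highest mean FPKM, had 967, 930.4 and 967 CPM in pTreg cells and 1112, 1154, 1182, 1139 and 1122 CPM in tTreg cells, against 561, 550.1, 568.3 and 567.8 CPM in LN Treg cells. The groups stood apart, with log2 fold changes of -0.25 (adjusted p 4.88e-08), 0.87 (adjusted p 1.34e-20) and 1.12 (adjusted p 1.35e-24) in pTreg over tTreg, pTreg over LN Treg and tTreg over LN Treg cells. Atp5a1, the alpha subunit that alternates with it, had -0.15, 0.45 and 0.60, all called. Of the 5 subunits of the F1 head, the other 3 passed no test between the tumor groups or in tTreg over LN Treg cells.

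The c ring of complex V, which turns as protons pass, is built from 1 mature protein that Atp5g1, Atp5g2 and Atp5g3 all encode. Atp5g1 had 41.5, 43.9 and 44.2 CPM in pTreg cells and 52.0, 51.2, 57.5, 57.6 and 59.1 CPM in tTreg cells, against 31.4, 29.0, 37.2 and 36.5 CPM in LN Treg cells. The groups did not overlap, and its log2 fold change between the tumor groups was -0.35 (adjusted p 1.44e-05). Atp5g3 changed by -0.25 between the tumor groups and by 0.71 and 0.96 over LN Treg cells. Atp5g2 had 82.4, 79.6 and 83.4 CPM in pTreg cells and 85.8, 89.1, 80.3, 90.4 and 85.9 CPM in tTreg cells, against 83.4, 95.6, 99.1 and 89.8 CPM in LN Treg cells. It passed no test in the 3 comparisons, and its difference of 0.01 in tTreg over LN Treg cells turned negative under 6 alternatives and when any 1 of 5 libraries was left out. As a share of the FPKM of the 3 genes, Atp5g2 held 26.7 ± 0.10% in pTreg cells and 24.0 ± 1.05% in tTreg cells, against 38.2 ± 1.74% in LN Treg cells. Reads from the near-identical coding parts of these genes and their retrocopies may have been divided between them by the quantification.

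The mitochondrial genome encodes 7 subunits of complex I, 1 of complex III, 3 of complex IV and 2 of complex V, all cut from long transcripts of its 2 strands. In pTreg over tTreg cells 8 of the 13 were lower and 0 higher (median -0.19). Neither edgeR at an unadjusted p below 0.05, nor DESeq2, nor limma on log2(FPKM + 1) found any higher, whereas edgeR without the filter on low counts called mt-Atp8 and mt-Nd4l higher. In pTreg over LN Treg cells 10 were higher and 3 lower (median 0.36), and in tTreg over LN Treg cells 11 were higher and 2 lower (median 0.49). The most abundant was mt-Co1, the catalytic subunit of complex IV, at 19634 ± 788 CPM in pTreg cells and 22635 ± 727 CPM in tTreg cells, against 17297 ± 371 CPM in LN Treg cells. Its log2 fold changes were -0.20, 0.29 and 0.49, all called.

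Along the transcribed order mt-Nd1 and mt-Nd2, the first genes, rose in both tumor groups over LN Treg cells, and mt-Nd5 near its end fell, but the genes between them did not decline evenly. mt-Nd1, the first (M:2751-3707, GRCm38), had 3744, 3552 and 3957 CPM in pTreg cells and 4198, 4595, 4313, 4739 and 4675 CPM in tTreg cells, against 2565, 2578, 2418 and 2510.2 CPM in LN Treg cells. The groups did not overlap, at -0.26 (adjusted p 7.53e-06), 0.68 (adjusted p 1.22e-14) and 0.94 (adjusted p 3.25e-19) in pTreg over tTreg, pTreg over LN Treg and tTreg over LN Treg cells. mt-Nd5, near the end of the order (M:11742-13565), had 1834, 1865 and 1862 CPM in pTreg cells and 1999, 1969, 1775, 2121 and 2046 CPM in tTreg cells, against 2537, 2598, 2431 and 2509.9 CPM in LN Treg cells. Here LN Treg cells were above every tumor library and the tumor groups overlapped, at -0.09 (not called, adjusted p 0.0633), -0.34 (adjusted p 2.14e-08) and -0.25 (adjusted p 3.68e-07). mt-Nd2, the next gene after mt-Nd1, changed by -0.28, 0.61 and 0.89. Between mt-Nd2 and mt-Nd5, in order, mt-Co1, mt-Co2, mt-Atp8, mt-Atp6, mt-Co3, mt-Nd3, mt-Nd4l and mt-Nd4 changed by 0.29, 0.36, 0.81, 0.43, 0.43, 0.35, 0.41 and 0.23 in pTreg over LN Treg cells and by 0.49, 0.61, 0.72, 0.62, 0.65, 0.46, 0.26 and 0.37 in tTreg over LN Treg cells, all called. On counts, in pTreg over LN Treg cells mt-Atp8 thus changed more than mt-Nd1, and mt-Co1 less than the 6 genes that follow it up to mt-Nd4l. On FPKM the order of mt-Atp8 and mt-Nd1 was reversed. There mt-Atp8 averaged 43488 in pTreg and 33649 in LN Treg cells, and mt-Nd1 5794 and 3900. In pTreg replicate 1 mt-Atp8 had 113 CPM but 41682 FPKM, so very little of its 204 bases entered as length. Neither its counts nor its FPKM therefore give it a firm place in the order.

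mt-Cytb, the only mitochondrial subunit of complex III and the last gene of that strand, had 3708, 3762 and 4123 CPM in pTreg cells and 4272, 4558, 4509, 4772 and 4644 CPM in tTreg cells, against 4550.2, 4524, 4523 and 4574 CPM in LN Treg cells. pTreg cells were below the other groups, which overlapped each other, at -0.13 over LN Treg cells (adjusted p 0.00458), while tTreg cells were at 0.10 (adjusted p 0.0102). Mean levels in tTreg and LN Treg cells were 4551 and 4543 CPM, and the median of all genes was also 0.10 there. The tTreg call was kept in 17 of 22 alternatives, over which the log2 fold change fell as low as 0.0028. mt-Nd6, the only one of the 13 on the other strand, had 69.3, 89.1 and 98.5 CPM in pTreg cells and 96.5, 65.8, 87.3, 89.3 and 79.7 CPM in tTreg cells, against 117, 143, 137 and 96.2 CPM in LN Treg cells. It was lower in both tumor groups, by -0.42 and -0.46 (adjusted p 7.23e-04 and 4.85e-05), with overlap between each tumor group and the lowest LN Treg library. Over the 12 genes of the first strand, Spearman's rho between start position and log2 fold change was 0.54 in pTreg over tTreg cells, -0.71 in pTreg over LN Treg cells and -0.87 in tTreg over LN Treg cells, as a description across genes that share libraries and precursor transcripts. The log2 ratio of mt-Nd1 to mt-Nd5 counts, chosen after its values were seen, was 1.02 ± 0.080 in pTreg cells and 1.19 ± 0.078 in tTreg cells, against -0.0006 ± 0.012 in LN Treg cells.

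**Figure D3:**
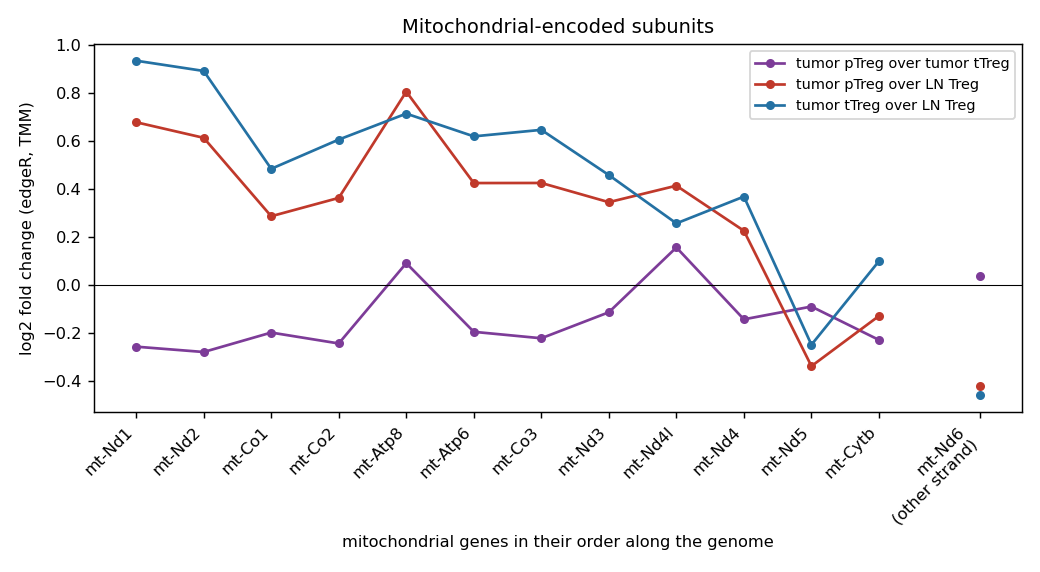
Log2 fold change (y) of the mitochondrial-encoded genes in their order along the genome (x), with mt-Nd6 of the other strand set apart, for the 3 comparisons. Both comparisons with LN Treg cells start at 0.68 and 0.94 for mt-Nd1 and are below 0 at mt-Nd5, and the comparison of the tumor groups stays between -0.28 and 0.16.

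4 pairs of mitochondrial genes overlap, so reads there can belong to either. mt-Atp6 and mt-Co3 share a single base, and the other 3 pairs are shown. The shared bases are in capitals, from the GRCm38 genome, each read 5′ to 3′ on its gene's strand, to show how little of each gene except mt-Atp8 is shared.
mt-Atp8, M:7910-7969: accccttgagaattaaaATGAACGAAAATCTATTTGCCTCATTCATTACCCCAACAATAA
mt-Atp6, M:7927-7986: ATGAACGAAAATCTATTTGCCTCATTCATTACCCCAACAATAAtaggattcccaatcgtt
mt-Nd4l, M:10114-10173: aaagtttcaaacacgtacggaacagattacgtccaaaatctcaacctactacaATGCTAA
mt-Nd4, M:10167-10226: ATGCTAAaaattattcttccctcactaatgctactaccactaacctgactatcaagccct
mt-Nd5, M:13526-13565: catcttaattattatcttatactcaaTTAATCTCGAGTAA
mt-Nd6, M:13552-13591: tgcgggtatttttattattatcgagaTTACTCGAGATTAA

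The overlap took 43 bases, 21.1% of mt-Atp8 and 6.31% of mt-Atp6, 7 bases of mt-Nd4l and mt-Nd4, and 14 bases of mt-Nd5 and mt-Nd6 on opposite strands. mt-Atp8 had 113, 116 and 107 CPM in pTreg cells and 129.8, 95.1, 99.3, 114 and 90.0 CPM in tTreg cells, against 55.5, 68.2, 91.1 and 60.1 CPM in LN Treg cells. pTreg cells were above LN Treg cells without overlap and inside the range of tTreg cells, at 0.09 (not called), 0.81 (adjusted p 6.05e-08) and 0.72 (adjusted p 6.64e-08). On FPKM, its difference in pTreg over tTreg cells was -0.23 in place of 0.09. mt-Nd4l did not pass the test between the tumor groups either, at 0.16 (adjusted p 0.20). Whether the counting used strand was stated in no source used here, so reads of mt-Nd6 and of the opposite strand cannot be told apart.

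The ratio of mitochondrial-encoded to nuclear-encoded counts took in all nuclear members, pseudogenes and gene models included. It was 6.50, 6.59 and 6.96 in pTreg cells and 6.76, 6.9997, 6.47, 6.84 and 6.96 in tTreg cells, against 7.93, 7.77, 7.11 and 7.48 in LN Treg cells. Both tumor groups were below every LN Treg library and overlapped each other. The mean log2 ratio differed by -0.03 in pTreg over tTreg cells, by -0.18 in pTreg over LN Treg cells and by -0.15 in tTreg over LN Treg cells, against SDs of 0.053, 0.045 and 0.069 within pTreg, tTreg and LN Treg cells. With FPKM in place of counts the ratios averaged 7.82 ± 0.37 in pTreg cells and 7.78 ± 0.12 in tTreg cells, against 8.18 ± 0.29 in LN Treg cells, and the groups overlapped. The short mt-Atp8 dominates the FPKM sum of the mitochondrial genes.

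**Figure D4:**
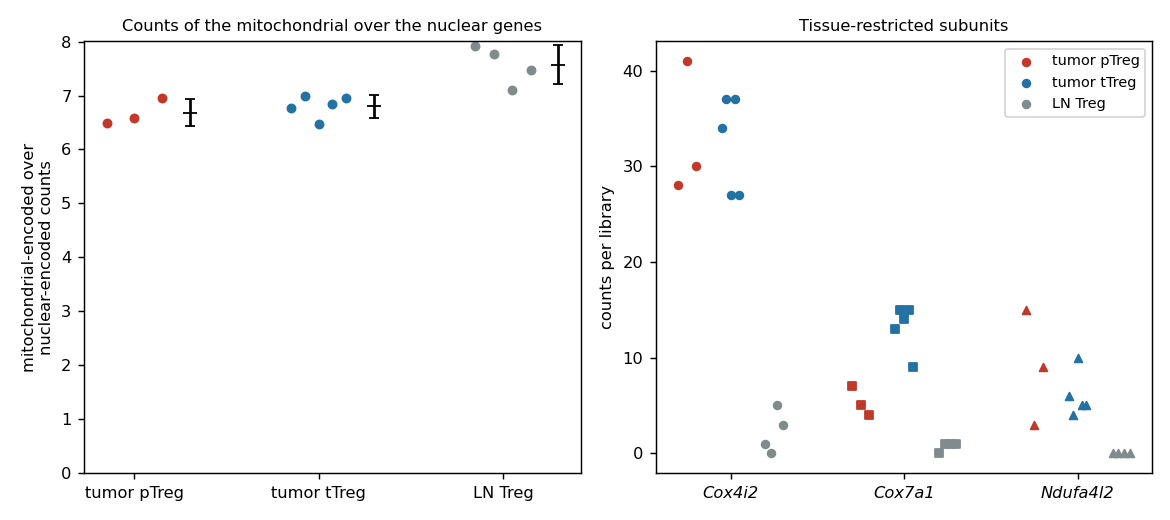
Left, ratio of mitochondrial-encoded to nuclear-encoded counts (y) in each library (points, with mean and SD as bars), nuclear pseudogenes and gene models included. Right, counts per library (y) of 3 tissue-restricted subunit genes. The 8 tumor libraries lie between 6.47 and 6.9997 and the LN Treg libraries between 7.11 and 7.93, and Cox4i2, Cox7a1 and Ndufa4l2 are at or near 0 in LN Treg cells.

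Genes that serve the chain were counted in 5 lists. Beside them, 26.8% of all tested genes were higher and 25.3% lower in pTreg over tTreg cells (52.1% called). Over LN Treg cells the shares were 47.6% and 39.8% in pTreg cells (87.5% called) and 48.1% and 42.3% in tTreg cells (90.3% called). The medians of all genes were -0.01, 0.12 and 0.10 in these comparisons. A list of 18 genes held electron carriers, inner-membrane carriers, outer-membrane channels, genes of ubiquinone synthesis, Ndufab1 and Atpif1. Of these 18, 2 were higher and 8 lower in pTreg over tTreg cells, 12 higher and 5 lower in pTreg over LN Treg cells, and 11 higher and 3 lower in tTreg over LN Treg cells. Vdac1, an outer-membrane channel for metabolites, had 257 ± 10.96 CPM in pTreg cells and 301 ± 7.47 CPM in tTreg cells, against 85.7 ± 1.23 CPM in LN Treg cells (log2 fold change 1.69 and 1.91 over LN Treg cells, adjusted p 1.76e-26 and 5.34e-29). Atpif1, the inhibitor of ATP synthase run in reverse, changed by 1.58 in pTreg over LN Treg cells. Coq7, an enzyme of ubiquinone synthesis, had 7.56 ± 0.83 CPM in pTreg cells and 10.5 ± 0.71 CPM in tTreg cells, against 2.94 ± 0.33 CPM in LN Treg cells. Its difference between the tumor groups was -0.46 (adjusted p 8.90e-05). Slc25a4, an ADP/ATP carrier, was higher in pTreg than tTreg cells, at 49.3 ± 1.66 and 37.2 ± 1.16 CPM, against 59.2 ± 2.67 CPM in LN Treg cells.

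Of 44 assembly factors of the complexes, 3 were higher and 8 lower in pTreg over tTreg cells, 14 higher and 24 lower in pTreg over LN Treg cells (median -0.21), and 16 higher and 21 lower in tTreg over LN Treg cells (median -0.14). The medians over LN Treg cells were thus below 0 for assembly factors and above 0 for subunits, a difference that was not tested. Besides Sdhaf1, Cox18, which helps insert the mt-Co2 protein into the membrane, had 6.27 ± 0.87 CPM in pTreg cells and 4.84 ± 0.61 CPM in tTreg cells, against 13.0 ± 0.99 CPM in LN Treg cells. Uqcc3, a complex III assembly factor, changed by -1.09 in pTreg over LN Treg cells (adjusted p 7.10e-13). Coa7, a complex IV assembly factor, went the other way over LN Treg cells and had -0.32 in pTreg over tTreg cells (adjusted p 6.70e-04), a sign that turned to 0.07 on FPKM values.

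Of 26 genes that maintain and express mitochondrial DNA, 2 were higher and 10 lower in pTreg over tTreg cells, 5 higher and 14 lower in pTreg over LN Treg cells (median -0.28), and 10 higher and 13 lower in tTreg over LN Treg cells (median -0.16). Polg, the catalytic subunit of the mitochondrial DNA polymerase, had 86.8 ± 2.45 CPM in pTreg cells and 85.8 ± 2.61 CPM in tTreg cells, against 195 ± 2.38 CPM in LN Treg cells. Polg2, its accessory subunit, had 14.3 ± 0.48 CPM in pTreg cells and 7.35 ± 0.30 CPM in tTreg cells, against 23.8 ± 1.38 CPM in LN Treg cells, and its 0.97 in pTreg over tTreg cells was the largest change of the list there (adjusted p 6.63e-12). Mterf1a, of a family of mitochondrial termination factors, changed by -1.99 and -2.11 over LN Treg cells. Fastkd2, an RNA-binding protein of mitochondria, changed by -0.41 in pTreg over tTreg cells (adjusted p 7.62e-09). Of 10 regulators of mitochondrial biogenesis, 4 were higher and 3 lower in pTreg over tTreg cells, 3 higher and 7 lower in pTreg over LN Treg cells, and 3 higher and 6 lower in tTreg over LN Treg cells. Nrf1, a transcription factor of nuclear respiratory genes, had 32.6 ± 2.27 CPM in pTreg cells and 29.4 ± 0.54 CPM in tTreg cells, against 57.1 ± 1.53 CPM in LN Treg cells. Gabpb1, a subunit of the ETS factor GABP, changed by 0.63, -0.48 and -1.10 in pTreg over tTreg, pTreg over LN Treg and tTreg over LN Treg cells. Myc fell by 0.33 on the log2 scale in pTreg against tTreg cells, and Perm1 changed by -1.54 and -1.42 over LN Treg cells. Ppargc1a, a coactivator known to drive mitochondrial biogenesis, was below the 5 CPM set for naming and is given after its values were seen. It had 1.59 ± 0.25 CPM in pTreg cells and 2.57 ± 0.43 CPM in tTreg cells, against 0.029 ± 0.033 CPM in LN Treg cells, and was lower in pTreg than tTreg cells (-0.69, adjusted p 0.00496) and higher in each than in LN Treg cells (adjusted p 3.39e-11 and 2.91e-14).

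The tricarboxylic acid cycle and pyruvate dehydrogenase supply NADH and succinate. Of their 20 genes 1 was higher and 15 lower in pTreg over tTreg cells, 16 higher and 2 lower in pTreg over LN Treg cells, and 18 higher and 2 lower in tTreg over LN Treg cells. The gene higher between the tumor groups was Ogdh (0.10), a subunit of the oxoglutarate dehydrogenase, and those lower over LN Treg cells were Ogdh and Idh3b. Idh2, the mitochondrial NADP-dependent isocitrate dehydrogenase, had 155 ± 2.02 CPM in pTreg cells and 207 ± 3.67 CPM in tTreg cells, against 23.2 ± 1.08 CPM in LN Treg cells. Its log2 fold changes were -0.41, 2.85 and 3.26 (adjusted p 1.39e-12, 6.21e-31 and 1.35e-33). Fh1, fumarate hydratase, changed by -0.30, 1.01 and 1.31, and Idh3a, a subunit of the NAD-dependent isocitrate dehydrogenase, by 1.02 in pTreg over LN Treg cells.

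The promoters of the nuclear members were searched for the sites of factors known to act on respiratory genes. RefSeq windows of 300 bases on GRCm38.p6, from 250 before to 50 after the start, were matched for 67 of the 82 nuclear subunit genes (72 windows). The NRF1 motif GCGCNTGCG on either strand was in 25 windows (34.7%), beside 6.31% of all 32851 windows of that length. The ETS motif CCGGAAG on either strand was in 17 (23.6%), beside 8.86%, and the YY1 motif AAGATGGCG on either strand was in 7 (9.72%), beside 1.4%. These shares depend on which genes are members and not on their levels in any group. The windows compared were not matched for base content or expression. A match is a description and not a site of binding, and a part of these factors in the changes was not tested. The sites below are shown because they stand upstream of genes that behaved differently, 3 that differed between LN Treg and tumor cells (Cox6a1, Sdhd and Ndufa8) and 1 that passed no test (Atp5g2). Capitals mark the motif as read on the gene's strand, in some lines its reverse complement, and in the first line and for Atp5g2 a match on the other strand overlaps it.
Cox6a1 NRF1, chr5:115349097-115349135, minus strand: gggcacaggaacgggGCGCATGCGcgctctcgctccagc
Cox6a1 NRF1, chr5:115349051-115349089, minus strand: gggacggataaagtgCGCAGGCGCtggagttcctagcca
Sdhd NRF1, chr9:50603904-50603942, minus strand: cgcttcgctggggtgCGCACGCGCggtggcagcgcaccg
Sdhd ETS, chr9:50603874-50603910, minus strand: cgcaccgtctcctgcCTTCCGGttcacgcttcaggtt
Ndufa8 NRF1, chr2:36049345-36049383, minus strand: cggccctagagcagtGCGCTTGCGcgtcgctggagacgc
Atp5g2 NRF1, chr15:102671066-102671104, minus strand: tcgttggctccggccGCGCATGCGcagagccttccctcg

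Of the 9 pseudogenes and gene models, 5 had 1 to 26 counts in all 12 libraries and were not tested. Of the 4 tested, Ndufa12-ps had 0.628 ± 0.21 CPM in pTreg cells and 1.37 ± 0.23 CPM in tTreg cells, against 0.245 ± 0.19 CPM in LN Treg cells, the order of its parent Ndufa12. Ndufb1-ps, annotated under a pseudogene's symbol, had 14.5 ± 0.67 CPM in pTreg cells and 12.9 ± 1.88 CPM in tTreg cells, against 10.3 ± 1.05 CPM in LN Treg cells. How reads of such copies and of their parents were divided was not tested. Atp5o stands for 2 annotated genes of that symbol, so its value may be a mean of both.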

How the data were processed

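The authors deposited a table of RSEM expected counts, already whole numbers, and a table of FPKM for 55413 genes in 12 libraries (3 tumor pTreg, 5 tumor tTreg, 4 LN Treg). Per the submitters' processing notes STAR 2.7.11a, RSEM 1.3.3 and DESeq2 were used with GRCm38 (mm10), and per the labels' protocols TRIzol total RNA was read on BGISEQ-500. The annotation and the strand setting are not given in the sources used here. Members and lists were chosen with earlier results of these data known. All columns were used, and each of the 19 pairs of libraries within a group differed by more than sampling noise (chi-square over its degrees of freedom, 1.65 to 3.97). Pairs between groups were not checked in this way.

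edgeR 4.0.16 (R 4.3.3) fitted all 12 libraries at once with TMM factors after filterByExpr (15705 genes), with its quasi-likelihood F test and Benjamini-Hochberg adjustment per comparison, and was tested on simulated data. CPM uses deposited library totals. DESeq2 1.42.0, limma 3.58.1 on log2(FPKM + 1) or log2(FPKM + 0.1), other scalings and filters, a replicate block and leaving out each library were alternatives. The labels do not say whether replicate numbers pair libraries. Complex IV includes Ndufa4 and Ndufa4l2. Positions come from GENCODE release 21 and promoters from RefSeq. Named were all mitochondrial members, the 5 called members furthest in each direction per comparison without overlap and with a mean of at least 5 CPM, tissue-restricted families, complex II, core subunits, the member of highest FPKM per complex, and the 2 largest called changes per pathway list at that mean. One named member is not reported here.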

Additional observations from a re-analysis of the deposited data

Results flagged for a closer look

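In groups of 4 or 5 libraries, 1 library stood apart from the others by Dixon's test at the 95% level in 9 of 102 groups checked over 51 named genes, where chance gives about 5%. In tTreg cells mt-Co1 was at 21360.4 CPM in replicate 1, against 22712 to 23080.5 CPM in the others, and mt-Nd4 at 3595 CPM in replicate 3, against 4212 to 4434 CPM. mt-Nd4l was at 105 CPM in tTreg replicate 1, against 61.4 to 73.6 CPM in the others, and Cox6b1 at 96.5 CPM in the same library, against 112 to 117 CPM. Cox7a2 was at 33.6 CPM in tTreg replicate 4, against 30.5 to 31.1 CPM in the others. Cox7b2 had its single count, 0.0546 CPM, in tTreg replicate 2. In LN Treg cells Cox7a1 was at 0 CPM in replicate 1, against 0.0577 to 0.0686 CPM in the others, which is 0 against 1 count. Atp5a1 was at 530.6 CPM in LN Treg replicate 1, against 547 to 551 CPM, and Uqcrc1 at 56.5 CPM in LN Treg replicate 2, against 59.6 to 59.8 CPM. Replicate 1 of the tTreg cells held 3 of the 9, and the cause was not tested.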

How the results depend on the processing

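Of the counts of called nuclear and mitochondrial genes, those of higher genes over LN Treg cells and of lower genes in pTreg over tTreg cells stayed within 1.5 times under every alternative run. In pTreg over tTreg cells the 2 nuclear genes called higher were 1 with RLE factors, library totals, DESeq2 and each limma fit on FPKM, and 1 to 3 when 1 library was left out, the 1 without pTreg replicate 1 or 3 or tTreg replicate 1, 2 or 3. The 1 nuclear gene lower by at least 1.5-fold was 0 with a minimum mean of 5 CPM and on log2(FPKM + 0.1), and the 0 higher by at least 1.5-fold were 0 to 1 when 1 library was left out, the 1 without pTreg replicate 2. The 0 mitochondrial genes called higher were 2 with no filter and 0 to 1 when 1 library was left out, the 1 without tTreg replicate 1. In pTreg over LN Treg cells the 7 nuclear genes called lower were 15 with library totals and each limma fit on FPKM, 11 with a minimum mean of 5 CPM, and 4 to 9 when 1 library was left out, the lowest without LN Treg replicate 3. In tTreg over LN Treg cells the 7 called lower were 12 with library totals and 11 in limma with a minimum mean FPKM of 1, and the 1 lower by at least 1.5-fold was 2 with no filter and in that limma fit, and 1 to 2 when 1 library was left out, the 2 without pTreg replicate 1 or 2. On FPKM the log2 difference of the ratio of mitochondrial to nuclear counts was 0.0052 in pTreg over tTreg cells, -0.066 in pTreg over LN Treg cells and -0.071 in tTreg over LN Treg cells.

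Of the named genes' log2 fold changes that turned sign, those of Sdha in pTreg over LN Treg cells and Coa7 in pTreg over tTreg cells had been called, and so had Atp5c1 outside the named genes, at 0.10 in pTreg over LN Treg cells and down to -0.0048 among the alternatives. On log2(FPKM + 1), log2(FPKM + 0.1) and with a minimum mean FPKM of 1, Sdha was at -0.043 in pTreg over LN Treg cells in all 3, Coa7 at 0.072, 0.078 and 0.072 and mt-Atp8 at -0.228 in all 3 in pTreg over tTreg cells. In the same fits and comparison mt-Nd6 was at -0.0065, -0.0066 and -0.0065 and Ndufa6 at -0.018 in all 3, and in tTreg over LN Treg cells Atp5g2 was at -0.079 in all 3 and Uqcrc1 at -0.097, -0.099 and -0.097. In pTreg over tTreg cells RLE factors and DESeq2 gave mt-Nd6 -0.0050 and -0.0047, Ndufa6 -0.038 in both and Sdhb -0.020 in both, and library totals gave Ndufa6 -0.0013. In tTreg over LN Treg cells Atp5g2 and Uqcrc1 were at -0.091 and -0.072 with library totals and at -0.039 and -0.019 with a minimum mean of 5 CPM, and Atp5g2 was at -0.0047 with the compared groups alone. With 1 library left out, values in pTreg over tTreg cells ran from -0.134 to 0.159 for Cox4i2, from -0.049 to 0.037 for Ndufa3, from -0.037 to 0.042 for Ndufa6, from -0.053 to 0.028 for Ndufs7, from -0.020 to 0.060 for Sdhb, from -0.055 to 0.012 for Uqcrh and from -0.076 to 0.171 for mt-Nd6. In tTreg over LN Treg cells they ran from -0.046 to 0.037 for Atp5g2 and from -0.00034 to 0.043 for Uqcrc1. The cause was not tested.

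With a replicate block in pTreg over tTreg cells 2 nuclear genes were higher and 47 lower and 7 mitochondrial genes lower, and mt-Nd6, Ndufa3 and Uqcrh were at -0.026, 0.022 and 0.014. The block moved no count of nuclear or mitochondrial genes by over 1.5 times in the 3 comparisons. The pairing was checked over 11053 genes. Same-numbered libraries of different groups correlated at -0.079 to 0.076 in their deviations from group means. None of 10 such pairs was over 0.1, and other pairs were at -0.147 to 0.202. Same-numbered pTreg and tTreg libraries, whose library names also share a number, were at -0.079, -0.014 and 0.04. The LN Treg libraries came from mice without tumors. Such correlations in groups this small cannot decide whether same-numbered pTreg and tTreg libraries came from the same tumor. RLE factors moved the median of all genes by -0.044 in pTreg over tTreg cells, where the share of called genes that were higher was 42.3%, beside 51.4% with TMM. Depth limits Cox7a1, Ndufa4l2, Cox6a2, Cox6b2 and Cox7b2, which had 0 to 66 counts summed over a group.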
